A study of Mus musculus with 12 samples.

Results

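The dual-specificity MAP kinase phosphatases were examined in sorted bone marrow cells of young and aged mice that the study names M-MDSCs, monocytic myeloid-derived suppressor cells. The family was taken by name as 10 genes, Dusp1, Dusp2, Dusp3, Dusp4, Dusp5, Dusp6, Dusp7, Dusp10, Dusp16 and Dusp22, out of 23420 genes counted. All 10 were in the table, and 6 of them had enough counts to be among the 9742 genes tested for a difference between the ages.

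M-MDSCs had been sorted by flow cytometry as CD11b+Ly6G-Ly6Chi bone marrow cells, and their total RNA was sequenced with stranded libraries. Young mice were 6 months old and aged mice 24 months old, and each age was represented by 6 mice with a library of their own. All were male C57BL/6JNIA mice with no genetic change or treatment named, and the labels give the tissue as tibia and the cell type as bone marrow. Between 8737941 and 16300374 fragments per mouse were counted on genes in the aged group and between 4613239 and 9079237 in the young group, and a level in CPM is a gene's count scaled by the library total after TMM normalization. Alignment files were numbered 11 to 16 for young mice and 17 to 19 and 24 to 26 for aged mice, so that a technical change between 16 and 17 cannot be told apart from age. Young replicates 5 and 6 stood apart from the other young libraries, with summed neutrophil markers of 84255 and 85247 CPM against 113120 to 130560 CPM and the proliferation gene Mki67 at 674 and 598 CPM against 229 to 318 CPM. Where the call or the sign of a named gene changed without both, this is stated beside the result, and values without both are given for some other results.

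MAP kinases are switched on when an upstream kinase phosphorylates a threonine and a tyrosine of their activation loop, and MAP kinase phosphatases switch them off by removing both phosphates. ERK, JNK and p38 are the main MAP kinases, and in myeloid cells they relay signals from growth factors, cytokines and microbial products. Many of the phosphatase genes are themselves transcribed in response to the kinases they inactivate, which makes the family a negative feedback arm of the pathway, and phosphatases differ in the kinase they prefer and in their place in the cell.

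The transcript of Dusp6, the cytoplasmic phosphatase that prefers ERK, was 1.83-fold higher in aged than in young M-MDSCs, and that of Dusp16, which acts on JNK and p38, was 1.41-fold higher. Dusp1, the most abundant member, was not called different, and neither were Dusp3, Dusp5 and Dusp7. A gene was called where its p-value in edgeR's quasi-likelihood test, adjusted by the Benjamini-Hochberg method across the 9742 genes, was below 0.05. By this rule 2 of the 6 tested members were called, beside 45.4% of all genes tested. Both were higher in aged mice, beside 22.4% of all genes, and 0 members were called lower, beside 23% of all genes, and with 6 members shares this close to the background are no result about the family. At an unadjusted p below 0.05, 0 members were lower, and DESeq2 also called 0 lower. Values of the ages did not overlap for 1 of the 6, Dusp6, beside 21.8% of all genes tested. Over the 6 tested members the median log2 fold change was 0.34, compared with 0.01 over all genes tested.

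**Figure D1:**
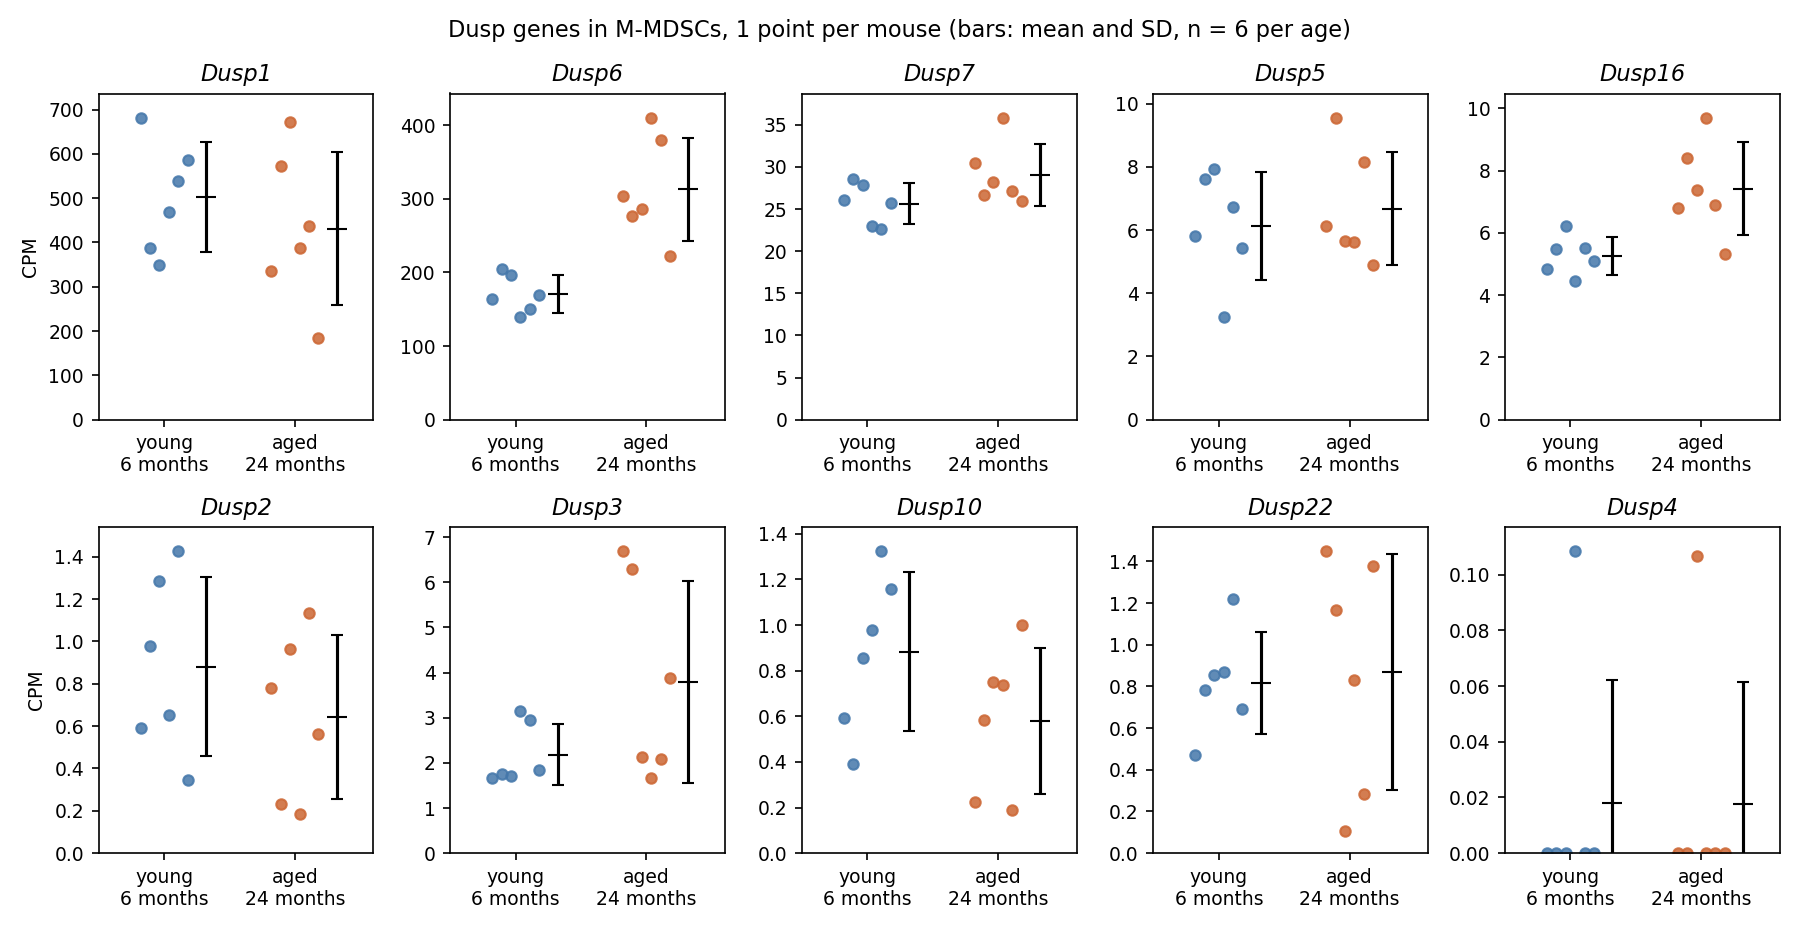
Level of each of the 10 Dusp genes in CPM (vertical axis, linear from 0, its range differing between panels) in young and aged mice, with 1 point per mouse and a bar for the mean and SD of 6 mice, cut at 0. The aged mice sit between 222 and 410 CPM for Dusp6, all above the young mice at 140 to 205 CPM, while the ages overlap in the panels of the other genes.

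Compared per kilobase of counted exon, Dusp1 and Dusp6 stood far above the other members in both ages. Dusp1 had a mean of 259 CPM per kb in young and 222 in aged mice, and Dusp6 had 61.1 and 112. The levels of the remaining genes were 7.98 in young and 9.05 in aged mice for Dusp7, 5.30 and 5.78 for Dusp5, and 1.03 and 1.45 for Dusp16, all in CPM per kb. Dusp3 was at 0.519 and 0.902 CPM per kb, and Dusp2, Dusp10, Dusp22 and Dusp4 had lower means than these in aged mice. In young mice Dusp2, at 0.544 CPM per kb, lay close to Dusp3.

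Dusp6 encodes the cytoplasmic phosphatase MKP-3, which binds ERK and is a classical ERK-induced feedback inhibitor. The gene lies at chr10:99263231-99267489 on the plus strand of mm10 and has 3 exons. In young mice its level was lowest at 140 CPM, had a median of 167 CPM and reached 205 CPM. In aged mice the lowest, median and highest values were 222, 294 and 410 CPM. Each aged mouse therefore lay above each young mouse, and the nearest were aged replicate 7 at 222 CPM and young replicate 1 at 205 CPM. The means were 313 ± 69.8 CPM in aged and 171 ± 25.5 CPM in young mice (SD, n = 6 each), with a log2 fold change of 0.88 with a standard error of 0.14 and a 95% interval of 0.58 to 1.17 (edgeR's quasi-likelihood test, adjusted p = 0.000241). Aged mice with alignment numbers up to 19 differed from the young mice by 0.757 on the log2 scale and those from 24 on by 0.996, both called, and without young replicates 5 and 6 the difference was 0.749 (adjusted p = 0.00167). As these are bulk samples, fewer cells of a type and less RNA per cell cannot be told apart, here and for every gene below.

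The sequence before the start of Dusp6 is shown because it carries the member with the clearest difference, and it can be set beside that of Dusp1 below. The window holds the 250 bases before the RefSeq start of the gene, from the RefSeq table of GRCm38.p6, at chr10:99262981-99263230 on the plus strand, and is written 5′ to 3′. Capitals in all windows mark matches, on either strand, to the cAMP response element TGACGTCA, its core TGACG, the AP-1 letters TGANTCA, the EGR letters GCGNGGGCG, the E-box CACGTG, the ETS letters CCGGAAG and the CArG box bound by serum response factor. The core is contained in the full cAMP response element, so that a match to the full element is also a match to the core.
Dusp6: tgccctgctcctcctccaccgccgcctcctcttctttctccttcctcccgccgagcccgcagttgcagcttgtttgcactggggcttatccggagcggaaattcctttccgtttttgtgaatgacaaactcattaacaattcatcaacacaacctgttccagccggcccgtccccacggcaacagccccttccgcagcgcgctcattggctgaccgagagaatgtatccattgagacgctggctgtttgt
None of these letters was found in the Dusp6 window, which says only that they are absent from these bases. Its GC content was 56.4%, compared with a median of 52.4% over the 32851 windows of the table.

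Dusp7 encodes the other cytoplasmic ERK-preferring phosphatase of the set, at chr9:106368632-106375723 on the plus strand with 3 exons. Its lowest, median and highest levels were 22.6, 25.9 and 28.5 CPM in young mice and 25.9, 27.7 and 35.9 CPM in aged mice. The ages overlapped, although all 6 aged mice lay above the young median. The log2 fold change of 0.19 (standard error 0.10, 95% interval -0.02 to 0.39) did not pass edgeR's quasi-likelihood test (adjusted p = 0.125). It was 0.12 without aged replicate 5 and 0.09 without young replicates 5 and 6.

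Dusp1, Dusp2, Dusp4 and Dusp5 encode the nuclear phosphatases that are transcribed rapidly after stimulation. Dusp1 (MKP-1), which acts on p38, JNK and ERK and restrains cytokine production by macrophages, lies at chr17:26505591-26508472 on the minus strand and has 4 exons. The young mice ranged from 350 to 682 CPM with a median of 504 CPM, and the aged mice from 185 to 672 CPM with a median of 412 CPM. The ranges overlapped almost fully, with aged replicate 4 at 672 CPM and aged replicate 7 at 185 CPM. The coefficient of variation between mice was 40.1% in aged and 24.8% in young mice, compared with 22.3% and 14.95% for Dusp6. The log2 fold change was -0.22 with a 95% interval of -0.74 to 0.30 (edgeR's quasi-likelihood test, adjusted p = 0.478), an interval that holds both a moderate fall and a small rise. With aged mice of alignment numbers up to 19 the value was 0.07, with those from 24 on it was -0.57, and neither was called. Single mice moved it too, to -0.06 without aged replicate 7, -0.11 without young replicate 10 and -0.39 without aged replicate 4, none of them called.

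The window before Dusp1 is shown because, of the 9 members with a window in the RefSeq table, it alone held the full cAMP response element, a motif known from genes induced early after stimulation. It lies at chr17:26508473-26508722 on the minus strand of GRCm38.p6 and is written 5′ to 3′ in the direction of the gene.
Dusp1: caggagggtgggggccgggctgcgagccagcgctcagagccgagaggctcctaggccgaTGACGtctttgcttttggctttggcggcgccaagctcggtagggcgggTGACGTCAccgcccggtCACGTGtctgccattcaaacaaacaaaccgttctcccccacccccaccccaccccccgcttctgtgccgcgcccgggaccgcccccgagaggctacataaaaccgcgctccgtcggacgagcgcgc
The full element TGACGTCA lay 143 to 136 bases before the start, and such a match occurred in 1.55% of all windows of the same length. A further core TGACG lay 191 to 187 bases before the start and an E-box CACGTG 126 to 121 bases before it, with matches in 17.8% and 6.02% of all windows. The GC content of this window was 68.4%. A match describes the letters and does not show that a factor binds there.

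Dusp5 encodes a nuclear phosphatase that is specific for ERK. Its gene lies at chr19:53529318-53541322 on the plus strand with 4 counted exons, which in this annotation hold 1155 coding bases and 0 noncoding bases, so that fragments from its untranslated ends were not counted. Young mice ranged from 3.26 to 7.93 CPM with a median of 6.26 CPM, and aged mice from 4.89 to 9.56 CPM with a median of 5.90 CPM. The ages overlapped, and the log2 fold change of 0.14 (95% interval -0.32 to 0.60) did not pass the test (edgeR's quasi-likelihood test, adjusted p = 0.619). The value rested on single mice, being 0.0005 without young replicate 5, 0.02 without aged replicate 2, 0.08 without aged replicate 6, 0.23 without aged replicate 7 and 0.22 without young replicate 2. The sign turned with a correction for exon length, to -0.17, and without both young replicates 5 and 6, to -0.012. None of these values was called. The window before Dusp5, at chr19:53528895-53529144 on the plus strand, is shown because it held adjoining CArG boxes.
Dusp5: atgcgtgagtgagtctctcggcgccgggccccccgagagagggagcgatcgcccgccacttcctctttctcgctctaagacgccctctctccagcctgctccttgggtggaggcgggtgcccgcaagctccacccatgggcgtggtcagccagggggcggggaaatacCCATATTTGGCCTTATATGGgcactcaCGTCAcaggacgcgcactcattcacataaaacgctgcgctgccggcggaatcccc
The CArG boxes lay 82 to 73 and 72 to 63 bases before the RefSeq start, and 1.47% of all windows held such a box. A core CGTCA, the reverse complement of TGACG, lay 55 to 51 bases before the start.

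Dusp2 and Dusp4 were near the limit of detection. Dusp2, at chr2:127336159-127338377 on the plus strand, had between 2 and 12 fragments in aged and between 3 and 14 in young mice, a mean of 0.643 and 0.880 CPM. Dusp4, at chr8:34807610-34819894 on the plus strand, had 1 fragment in aged replicate 4, 1 fragment in young replicate 5 and 0 in the other mice. In a mouse with a count of 0, a level of up to 3 counts is allowed, which is 0.188 to 0.350 CPM in aged and 0.306 to 0.643 CPM in young mice, for counting error only. No difference in Dusp4 was detectable at this depth.

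Dusp10 and Dusp16 encode phosphatases that prefer JNK and p38 over ERK. Dusp16 (MKP-7) lies at chr6:134715473-134792628 on the minus strand with 7 exons. Its level in young mice was lowest at 4.45 CPM, had a median of 5.28 CPM and reached 6.22 CPM. In aged mice the lowest, median and highest levels were 5.33, 7.14 and 9.70 CPM. All 6 aged mice lay above the young median, and the overlap came from aged replicate 7 at 5.33 CPM, below the young replicates 1, 2 and 6. Means were 7.42 ± 1.496 CPM in aged and 5.26 ± 0.611 CPM in young mice (SD, n = 6 each), and the log2 fold change of 0.50 (standard error 0.15, 95% interval 0.17 to 0.83) was called by edgeR's quasi-likelihood test (adjusted p = 0.0154). It was called without any 1 of the mice, with log2 fold changes of 0.41 to 0.59, and for the aged mice with alignment numbers up to 19 alone (0.52, adjusted p = 0.0227). Against the aged mice numbered from 24 on, the value was 0.49 and was not called (adjusted p = 0.0789), and without young replicates 5 and 6 it was 0.44 and was not called (adjusted p = 0.0712).

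The window before Dusp16 is shown as that of the other member called higher, at chr6:134792629-134792878 on the minus strand of GRCm38.p6.
Dusp16: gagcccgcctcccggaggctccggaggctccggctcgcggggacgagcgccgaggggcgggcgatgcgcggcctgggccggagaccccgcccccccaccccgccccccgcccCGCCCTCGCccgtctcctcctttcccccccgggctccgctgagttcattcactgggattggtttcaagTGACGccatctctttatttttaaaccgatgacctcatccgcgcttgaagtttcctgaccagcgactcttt
A core TGACG lay 70 to 66 bases before the start, and the EGR letters, found in 4.7% of all windows, lay 138 to 130 bases before it on the other strand as CGCCCTCGC. Dusp6 and Dusp16, the members called higher, therefore shared none of the searched letters in these windows. EGR letters were also found before Dusp2 and Dusp22, and none of the searched letters before Dusp3, Dusp7 and Dusp10.

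Dusp10 (MKP-5), at chr1:184034461-184075636 on the plus strand, had between 2 and 16 fragments in aged and between 2 and 13 in young mice. Its mean level was 0.581 CPM in aged and 0.883 CPM in young mice, with overlapping ranges. When the filter on low counts was left out and 15827 genes were tested, the log2 fold change of Dusp10 was -0.60, that of Dusp2 was -0.42 and that of Dusp22 was 0.09, with adjusted p-values of 0.319, 0.515 and 0.900 in edgeR's quasi-likelihood test.

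Dusp3 and Dusp22 encode small atypical phosphatases that lack the kinase-binding domain of the other members. Dusp3 (VHR), which acts on ERK and JNK, lies at chr11:101971144-101984791 on the minus strand with 3 exons. Young mice ranged from 1.66 to 3.15 CPM with a median of 1.80 CPM, and aged mice from 1.66 to 6.69 CPM with a median of 3.01 CPM. The aged mice were split, with aged replicates 1, 2 and 7 at 6.69, 6.29 and 3.88 CPM and the other three at 1.66 to 2.14 CPM, inside the young range. The log2 fold change was 0.75 with a wide 95% interval of -0.02 to 1.51 and was not called (edgeR's quasi-likelihood test, adjusted p = 0.101). It became a call without aged replicate 5 (0.90, adjusted p = 0.0450) and in the aged mice numbered up to 19 (1.16, adjusted p = 0.0253), and was 0.23 in those numbered from 24 on. Without aged replicate 1 it was 0.51 (adjusted p = 0.241).

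Dusp22 (JSP-1), at chr13:30660096-30711225 on the plus strand, had between 1 and 22 fragments in aged and between 4 and 12 in young mice. Its highest levels in aged mice were also in replicates 1, 2 and 7, at 1.45, 1.17 and 1.38 CPM, and the other three had 0.107 to 0.832 CPM. Young mice lay between 0.473 and 1.22 CPM. These counts are few, and no test of this pattern was made.

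Markers of other marrow cells moved with age and are given here beside the members. All 9 tested genes of a list of resident macrophage markers were called higher in aged mice, and the summed level of the list was 659 to 1648 CPM in aged and 418 to 593 CPM in young mice. The sums of aged replicates 1 and 2, which had the highest Dusp3, were 1648 and 886 CPM, the highest of all mice, whereas that of aged replicate 7 was 659 CPM, the lowest of the aged group. Of the 13 neutrophil markers, 8 were called higher and 0 lower, with sums of 131990 to 155200 CPM in aged and 84255 to 130560 CPM in young mice. Ngp, a neutrophil granule gene, alone had 24875 to 44393 CPM in these cells, which had been sorted as Ly6G-, while Ccr2, the chemokine receptor of classical monocytes, had 5.03 to 62.0 CPM. The sort markers Itgam and Ly6c2 were present at 2660 to 3543 CPM and 367 to 799 CPM, and Csf1r at 93.1 to 205 CPM, and Ly6g was not analysed here. By these levels the libraries held far more of the neutrophil than of the monocyte marker transcripts, which goes against a purely monocytic profile, and the name M-MDSC is used for the sort gate only. Of 9 tested monocyte markers 3 were called higher and 1 lower, with sums of 4320 to 5222 CPM in aged and 4681 to 5124 CPM in young mice. Dendritic cell markers summed to 21.4 to 208 CPM in aged and 28.2 to 43.3 CPM in young mice, with 1 of 6 tested genes called in each direction. B and plasma cell markers (120 to 183 and 102 to 129 CPM), T and NK cell markers (8.71 to 38.5 and 6.82 to 12.1 CPM, with Cd8a and Gzmb at 0 in every mouse), erythroid markers (16.7 to 31.2 and 20.6 to 37.0 CPM, with Hba-a1 and Hba-a2 at 0, which are near-identical copies whose fragments the mapping quality limit can remove) and basophil and mast cell markers (447 to 749 and 579 to 750 CPM) had only 2, 2, 1 and 1 genes tested, of which 1, 0, 0 and 0 were called higher and 0, 0, 1 and 0 lower. The part of these cells in the levels of the phosphatases was not tested.

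**Figure D2:**
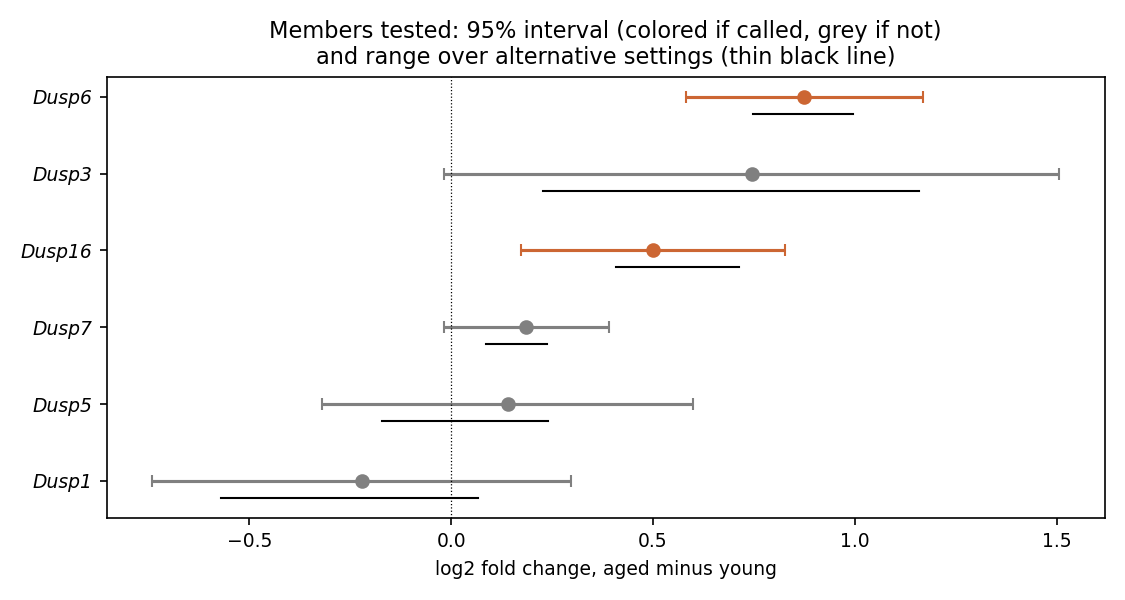
Log2 fold change of the 6 tested members (horizontal axis, aged minus young, with 6 mice per age), with points and capped bars for the estimate and its 95% interval, colored where called by edgeR's quasi-likelihood test and grey where not, and a thin line for the range over alternative settings. The interval of Dusp6, 0.58 to 1.17, and that of Dusp16, 0.17 to 0.83, lie above 0, and that of Dusp1, -0.74 to 0.30, spans 0.

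The kinases that these phosphatases act on did not share a direction. Of 9 tested MAP kinases, 3 were called higher and 2 lower, with a median log2 fold change of -0.05, beside 22.4% higher and 23% lower over all genes tested. The number called lower was 1 without aged replicate 1 or 2 or young replicate 1, 2, 5, 6 or 10, and 0 to 3 over the other settings, and without both young replicates 5 and 6 there were 2 called higher and 1 lower. Mapk13 (p38 delta) was at 193 ± 22.7 CPM in aged and 137 ± 15.5 CPM in young mice, and this rise of 0.49 on the log2 scale was called (edgeR's quasi-likelihood test, adjusted p = 0.00074). Mapk8 (JNK1), a substrate of Dusp16, was lower, at 7.64 ± 0.789 CPM in aged and 10.4 ± 1.12 CPM in young mice, with a log2 fold change of -0.44 (adjusted p = 0.0050 in the same test). The values of the ages did not overlap for either gene. The ERK1 gene Mapk3, the substrate of Dusp6, ranged from 423 to 481 CPM in aged and 290 to 421 CPM in young mice.

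Upstream of the MAP kinases lie kinases, Ras proteins and scaffolds that carry the signal from receptors. Of 19 tested MAP2 and MAP3 kinase genes 1 was called higher and 6 lower (median log2 fold change -0.18), and of 16 tested Ras proteins, exchange factors and scaffolds 2 were called higher and 6 lower (median -0.13), beside 22.4% higher and 23% lower over all genes tested. Over the alternative settings the MAP2 and MAP3 kinase genes had 0 to 2 called higher and 4 to 12 lower, and the Ras group 0 to 4 higher and 3 to 7 lower. Without young replicates 5 and 6 the counts were 0 higher and 7 lower for the kinases, and 1 higher and 5 lower for the Ras group. Braf, a kinase that starts the ERK cascade, was at 189 ± 14.7 CPM in aged and 281 ± 20.3 CPM in young mice, with a log2 fold change of -0.57 (edgeR's quasi-likelihood test, adjusted p = 3.62e-05). Map3k5 (ASK1), which acts above JNK and p38, had a log2 fold change of -0.65, and Sos1, the exchange factor that loads Ras with GTP, had -0.72, both called and without overlap between the ages. Mapk8ip3, a JNK scaffold, had -0.89, a value carried by young replicates 5 and 6 at 66.4 and 60.3 CPM, while the other young mice had 26.5 to 29.7 CPM and the aged mice 19.3 to 25.9 CPM. Without those libraries it was -0.38 and was called (adjusted p = 0.00657), and it was not called in either split of the aged mice by alignment number. In the other direction Nras, at 182 CPM in aged and 152 CPM in young mice, had a log2 fold change of 0.27 and was called (0.16 without young replicates 5 and 6, also called). Map2k1 (MEK1) had 0.19, a call that was lost when aged replicate 2, 5 or 6 or young replicate 1, 5 or 6 was left out, with adjusted p-values of up to 0.102, and when young replicates 5 and 6 were both left out (0.09). With a correction for exon length Mapk13, Mapk8 and Braf were no longer called, at 0.24, -0.19 and -0.04, and Sos1 and Map3k5 were at -0.25 and -0.41, still called.

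Other genes that restrain ERK were mixed. Of 6 tested genes, 1 was called higher and 1 lower, with a median log2 fold change of 0.21, shares near the 22.4% and 23% over all genes tested. Spry2, a Sprouty protein that is itself induced by ERK, was at 4.80 ± 2.19 CPM in aged and 2.65 ± 0.572 CPM in young mice, with a log2 fold change of 0.83 (edgeR's quasi-likelihood test, adjusted p = 0.0312). The call of Spry2 was lost when aged replicate 5 or 6 or young replicate 1, 2, 5 or 6 was left out, with adjusted p-values of up to 0.0860, and without young replicates 5 and 6 together (adjusted p = 0.122). Ptpn7, a tyrosine phosphatase of ERK and p38 in blood cells, was lower, at 48.3 ± 11.04 CPM in aged and 83.9 ± 15.8 CPM in young mice, with a log2 fold change of -0.80 (adjusted p = 0.000598 in the same test). Among 16 further genes named Dusp or Styx, 3 were tested and 1, Dusp28, was called higher (log2 fold change 0.57, adjusted p = 0.0429), and this call was lost in 19 of 25 alternatives, among them leaving out aged replicate 2, 4, 5 or 7 or young replicate 2, 5, 6, 9 or 10, with log2 fold changes of 0.25 to 0.64 over all alternatives. The call of Dusp28 was also lost without both young replicates 5 and 6 (0.61).

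Among 20 tested substrates and effector kinases of the pathway 3 were called higher and 6 lower, with a median log2 fold change of -0.14, shares near the 22.4% higher and 23% lower over all genes tested. Over the alternative settings 1 to 3 were called higher and 4 to 12 lower, with 1 higher and 5 lower without young replicates 5 and 6. Rps6ka4 (MSK2), a kinase activated by ERK and p38, had a log2 fold change of 0.28, and Mef2d and Atf7, transcription factors that are phosphorylated by MAP kinases, had -0.48 and -0.46, all called.

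Immediate early genes, transcribed within minutes of MAP kinase activation, were called lower in aged mice more often than higher. Of 26 tested genes of the list, which does not hold the Dusp members, 16 were called lower and 1 higher, beside 23% lower and 22.4% higher over all genes tested, and the median log2 fold change was -0.37. Fos ranged from 104 to 281 CPM with a median of 174 CPM in aged mice and from 292 to 733 CPM with a median of 461 CPM in young mice, without overlap, and had a log2 fold change of -1.34 (edgeR's quasi-likelihood test, adjusted p = 0.000512). Zfp36, an mRNA decay factor, was at 343 ± 42.0 CPM in aged and 708 ± 154 CPM in young mice (-1.05), and Junb at 301 ± 47.5 and 477 ± 58.3 CPM (-0.66), also without overlap. Log2 fold changes of further genes called lower were -1.98 for Fosb, -1.28 for Ppp1r15a, -1.07 for Nr4a1 (-0.67 without young replicate 6, which had 105 CPM, and -0.63 and not called without both young replicates 5 and 6), -0.75 for Atf3, -0.48 for Btg2, -0.42 for Ier3 (-0.76 with a correction for exon length, and -0.28 and not called with aged mice numbered from 24 on), -0.40 for Fosl2 (-0.14 with a correction for exon length, not called) and -0.28 for Ier2 (-0.49 with that correction). Zfp36l1 was the gene called higher, at 0.58 (0.35 without young replicates 5 and 6). With the aged mice numbered up to 19 alone, 6 of the 26 genes were called lower, beside 17.9% of all genes tested in that comparison, and without young replicates 5 and 6 the number was 11. Heat shock genes that respond to cell handling had 2 of 7 tested genes called lower and 0 higher, with Dnaja1 at -0.65 (-0.38 with a correction for exon length), and their sums were 515 to 563 CPM in aged and 553 to 736 CPM in young mice. Of 17 proliferation genes 3 were called lower and 0 higher, with Mki67 at -2.01 (-1.51 without young replicates 5 and 6), and their sums were 599 to 1236 CPM in aged and 980 to 1675 CPM in young mice. Only 1 proliferation gene was called lower without aged replicate 2, 4, 5 or 6, without young replicate 5 or 6, or without both of the latter. The counts of the heat shock and proliferation lists lie near or below the 23% of all genes called lower and are no result about these lists. The part of handling or proliferation in the levels of the phosphatases was not tested.

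**Figure D3:**
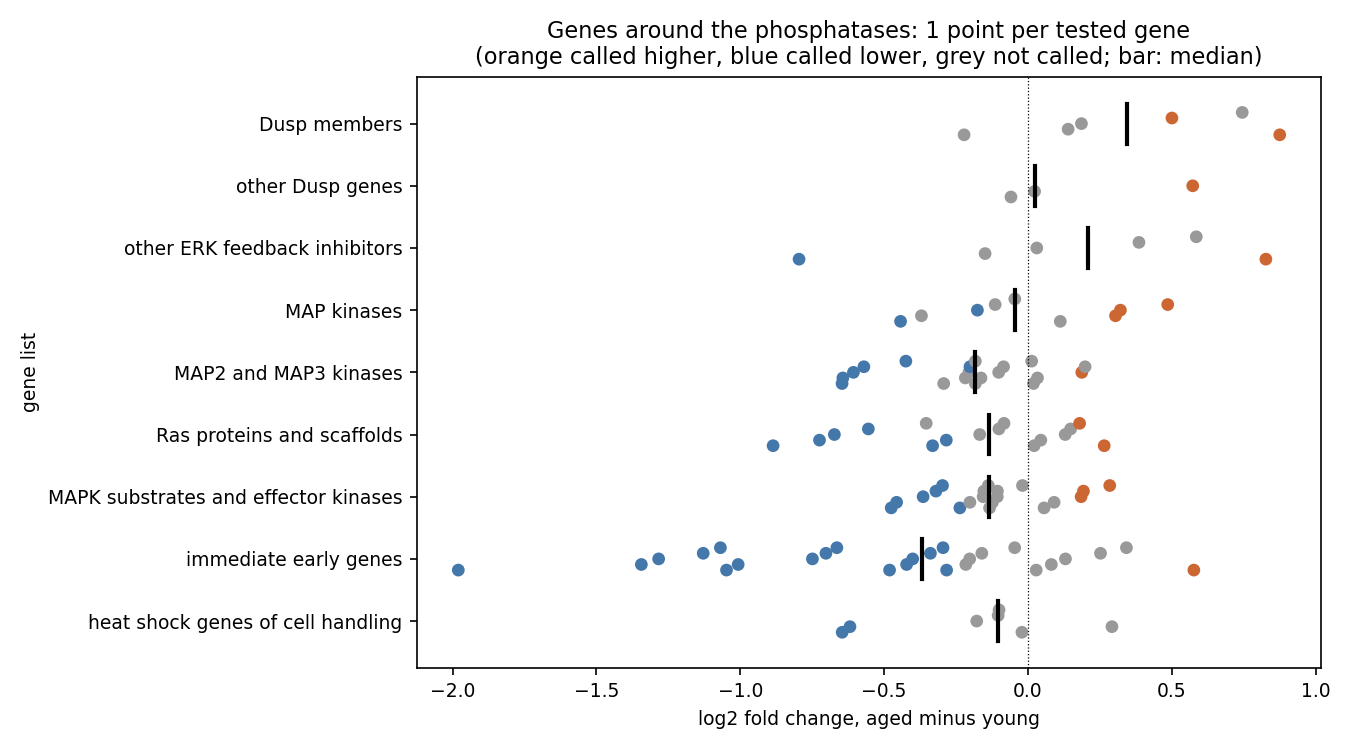
Log2 fold change, aged minus young (horizontal axis), of each tested gene of the Dusp members and of 8 lists around them (vertical axis), with 1 point per gene, orange where called higher, blue where called lower, grey where not called, and a bar for the median of the list. The medians are 0.34 for the Dusp members and -0.37 for the immediate early genes.

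Dusp1 is usually counted with the immediate early genes, and its level was set beside that of Fos in the same library. The ratio of Dusp1 to Fos fragments ranged from 1.77 to 4.09 with a median of 2.21 in aged mice and from 0.734 to 1.40 with a median of 1.22 in young mice, and the ages did not overlap. Within the pair of abundant phosphatases, Dusp6 per base relative to Dusp1 per base ranged from 0.295 to 0.836 (median 0.615) in aged and from 0.167 to 0.390 (median 0.204) in young mice, with overlap because aged replicates 2 and 4 had 0.335 and 0.295. Dusp6 made up 21.96% to 41.8% of the CPM per kb of all 10 members in aged and 13.8% to 26.1% in young mice, and Dusp1 made up 50.03% to 74.5% and 67.0% to 82.6%. These ratios were formed after the values had been seen and are given without a test. A ratio alone shows unequal change of its members and not which of them changed. In the tests of single genes Fos was called lower (log2 fold change -1.34) and Dusp6 higher (0.88), while Dusp1 was not called (-0.22).

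**Figure D4:**
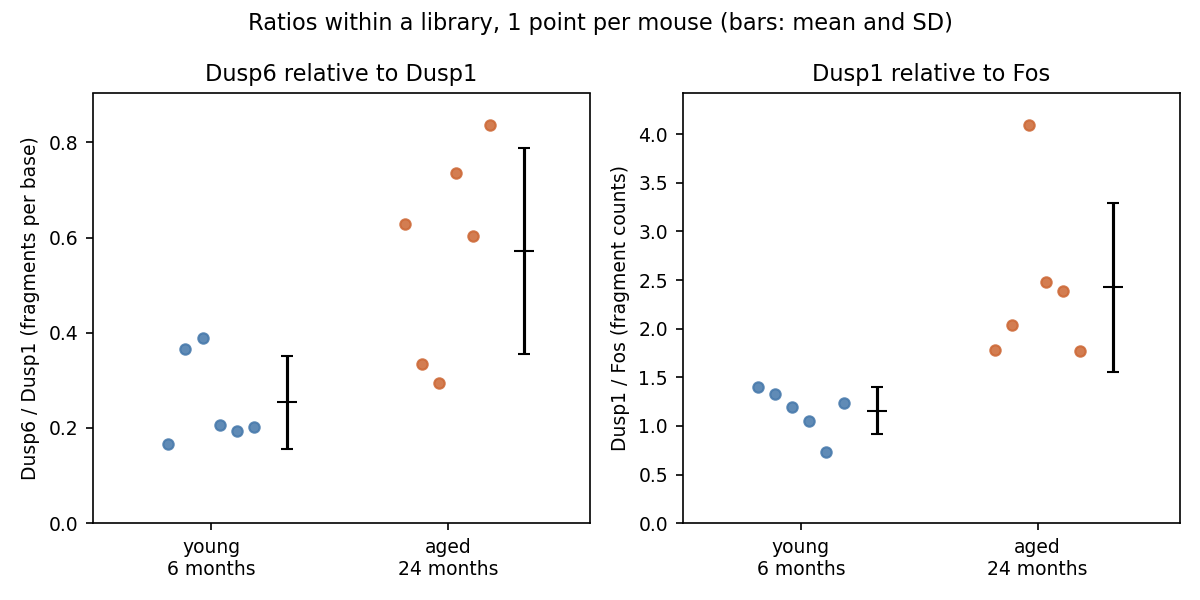
Dusp6 relative to Dusp1 in fragments per base of exon (left) and Dusp1 relative to Fos in fragment counts (right), both vertical axes linear from 0, with 1 point per mouse and a bar for the mean and SD of 6 mice per age. The Dusp1 to Fos ratio is 1.77 to 4.09 in aged mice, above all young mice at 0.734 to 1.40, and the Dusp6 to Dusp1 ratio overlaps between the ages.

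In the young mice with the lowest Dusp1, replicates 1 and 2 at 388 and 350 CPM, Dusp6 was highest, at 205 and 197 CPM, and these libraries also had the lowest mean of log2 CPM over the immediate early genes, 5.57 and 5.52, compared with 5.79 to 6.29 in the other young mice. They were also the shallowest libraries, with 5068845 and 4613239 fragments. The aged mice did not show this pattern, as aged replicate 7 had both the lowest Dusp1, at 185 CPM, and the lowest Dusp6, at 222 CPM. Its mean over the immediate early genes was 5.25, in an aged range of up to 5.70. Relations of Dusp6 and Dusp16 to the mean of the immediate early genes and to Fos were computed within each age, 8 in all. That with the smallest p was Dusp6 to Fos over the 6 young mice, with Pearson's r = -0.79 (exact permutation test, two-sided, p = 0.0569, adjusted p = 0.456) and Spearman's rho = -0.66 (p = 0.175, adjusted p = 1), and r = -0.70 without the 2 mice farthest from the median. Over the 6 aged mice the same relation of Dusp6 to Fos had r = 0.27 and rho = 0.03. None of the 8 passed the adjusted threshold.

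The genes whose levels followed Dusp6 most closely over the 12 mice, once the mean of each age had been taken off log2 CPM, were Sc5d (r = 0.95, Spearman's rho = 0.97), Gm12250 (0.95 and 0.89), Napa (0.94 and 0.94), Hiat1 (0.94 and 0.93) and Adipor2 (0.92 and 0.91). Among them 3 were called higher in aged mice. Gm12250 was at 4.64 ± 1.82 compared with 2.08 ± 0.6404 CPM, a log2 fold change of 1.20 (edgeR's quasi-likelihood test, adjusted p = 0.00405). Napa, at 0.24, and Hiat1, at 0.27, lost the call without both young replicates 5 and 6 (0.16 each), and Hiat1 also without aged replicate 5 or 6 or young replicate 5 or 6 alone. Sc5d, a cholesterol synthesis gene, was at 36.9 ± 7.24 and 35.2 ± 6.17 CPM and was not called. Its log2 fold change of 0.078 turned to -0.077 without both young replicates 5 and 6. The genes nearest to Dusp1 were Tsc22d3 (r = 0.93, rho = 0.94), Phlda1 (0.92 and 0.97), Per1 (0.92 and 0.93), Aasdhppt (0.90 and 0.85) and Slc39a7 (0.90 and 0.91). Tsc22d3 (GILZ) and Per1 are known glucocorticoid-induced genes, as is Dusp1. Phlda1, at -0.41, and Per1, at -0.86, were called lower in aged mice, and the call of Per1 was lost without aged replicate 1, 5, 6 or 7 or young replicate 6 or 10, and without both young replicates 5 and 6. These correlations are the highest of those with all 9742 tested genes, share the same 12 libraries and describe likeness only. Neither set of 5 genes held a gene of the other set.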

How the data were processed

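RNA of sorted M-MDSCs was sequenced from 6 young and 6 aged mice. The deposited values are raw fragment counts per gene that the authors made with featureCounts 2.0.0, per the file headers, over exons of a UCSC annotation of mm10, for read pairs on the gene's strand with both ends aligned and mapping quality no lower than 60. This limit lowers counts of genes with near-identical copies, and the aligner is not given in the sources used here. Mice were grouped by the age in the labels, and all 12 columns were used. The study's methods name DESeq2 for its own comparison.

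Genes were kept with filterByExpr (9742 of 23420, and 15827 had a count), scaled by TMM and tested with edgeR 4.0.16 (quasi-likelihood, R 4.3.3), and p-values were adjusted by the Benjamini-Hochberg method across these genes, with calls below 0.05. CPM use TMM-scaled totals, and log2 CPM a prior count of 2. The biological coefficient of variation was 15.7%. Each library comes from a separate mouse, so the error is that between mice. Counting error limits genes of few counts, with 3 counts as the floor for a count of 0.

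The members, lists and tests were chosen with earlier results of these data known. Named genes are all members, the called genes of each list that rose most, fell most or had the smallest p-value, up to 12 called immediate early genes, and the 5 genes nearest to Dusp6 and to Dusp1. Other names, such as Mapk3 and single markers, and the ratios were chosen after values were seen. Promoter windows come from a RefSeq table of GRCm38.p6, which held 9 of the 10 members. Alternatives included DESeq2 1.42.0, limma-voom (limma 3.58.1), other scalings and filters, exon length, GC content, thinned libraries, the alignment numbers and leaving out each mouse. Only the edgeR test was checked on simulated counts, in which far fewer genes changed than were called here. The other tests were not simulated.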

Additional observations from a re-analysis of the deposited data

Results flagged for a closer look

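Over 32 groups of mice checked for a single mouse far from the others, 3 held one, and chance gives about 1 in 20 such groups. In aged mice the ratio of Dusp1 to Fos fragments was 4.09 in replicate 4, far above the next mouse. Dusp4 was at 0.107 CPM in aged replicate 4 and at 0.109 CPM in young replicate 5, each from 1 fragment, with 0 in the other mice of the age. The cause of these values was not tested.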

How the results depend on the processing

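Over 27 alternatives Dusp6 was called higher in each, with log2 fold changes of 0.749 to 0.996 and adjusted p-values of up to 0.00994, and no member was called lower. The number of members called higher was 1 with the aged mice numbered from 24 on, 1 with the replicate block and 1 without young replicates 5 and 6, and 2 to 3 when 1 mouse was left out, where the 3 include Dusp3. Dusp16 was at 0.55 with the block (adjusted p = 0.0788) and at 0.56 in the same 8 mice without it (adjusted p = 0.0287). The shared replicate numbers did not pair the mice, since correlations of deviations were -0.25 to -0.07 over 4 numbers and 0 of 8 mice correlated best with their own number. Dusp1 turned to 0.066 with aged mice numbered up to 19, and Dusp5 to -0.17 with the correction for exon length and to -0.012 without young replicates 5 and 6. Among the nearest genes, Sc5d turned to -0.0067 without TMM and to -0.077 without young replicates 5 and 6, and Tsc22d3 to 0.12 with aged mice numbered up to 19, to 0.012 with the block, to 0.016 in the same 8 mice without it and to 0.016 without young replicate 10, with a range of -0.31 to 0.016 when 1 mouse was left out. The 16 immediate early genes called lower became 6 with aged mice numbered up to 19, 6 with the block and 9 in those 8 mice without it, and 12 to 16 without 1 mouse. Over all genes, 2240 were called lower and 2185 higher, with 1493 lower for the aged mice numbered from 24 on, 1392 higher without young replicates 5 and 6, and 1940 to 2351 lower and 1864 to 2366 higher without 1 mouse. In the splits of the aged mice by alignment number, Nras, Map2k1, Mapk8, Rps6ka4, Ier2, Ier3, Fosb, Ppp1r15a, Atf3 and Nr4a1 were not called in 1 split and Mapk8ip3, Spry2 and Dusp28 in either, all in an unchanged direction. The cause of these changes was not tested, although the splits also hold fewer mice. Leaving out young replicates 5 and 6 together was chosen after seeing the data. GC content was taken from transcripts, also an alternative chosen after seeing the data with a value for 94.4% of tested genes, and the planned correction with GC content of genomic exons was not run. Depth limits Dusp2, Dusp4, Dusp10 and Dusp22.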
